A study of Mus musculus with 22 samples.

Results

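Voltage-gated and related ion channel genes were followed in cardiac fibroblasts and cardiomyocytes of the mouse. Every row of the expression table was taken whose symbol starts with Kcn, Scn plus a digit, Cacn, Hcn plus a digit, Trpc, Trpm or Trpv, with Kcnj8 left out. This gave 160 of 23359 genes, and no level of expression was required. They are 10 pore-forming and 4 beta subunit genes of sodium channels, 26 subunit genes of calcium channels, 52 pore-forming and accessory genes of voltage-gated potassium channels, 12 genes of calcium- or sodium-activated potassium channels, 14 inward rectifiers, 14 two-pore-domain potassium channels, 4 Hcn genes and 21 TRP channel genes. The other 3 rows match by letters only: Kcnq1ot1 is an antisense transcript of the Kcnq1 locus, and Trpc4ap and Kcnrg do not encode channel subunits.

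Messenger RNA was sequenced from cells of male wild-type C57BL/6 mice aged 10 to 14 weeks, and every group shared this strain, sex and age. The 19 cardiac fibroblast (CF) libraries comprised 3 of sedentary animals, 2 taken at 3 days of sham surgery, 3 at 3 days of TAC, 3 at 10 days of TAC, 2 at 5 days of MI, 3 at 4 days of swimming and 3 at 10 days of swimming. The 3 cardiomyocyte (CM) libraries came from sedentary mice. The labels give TAC and MI as abbreviations, which are commonly read as transverse aortic constriction, a pressure overload, and myocardial infarction. Isolation of the cells is not described there, nor is it said that each library is a separate animal, so p-values measure the spread between samples, which may be technical.

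Most voltage-gated channels open when the membrane depolarises. In cardiomyocytes sodium channels carry the upstroke of the action potential, calcium channels trigger contraction, and several potassium currents repolarise the cell. Inward rectifiers and two-pore-domain channels set the resting potential, Hcn channels carry the pacemaker current, and accessory subunits change the trafficking and gating of the pores. Cardiac fibroblasts fire no action potentials but carry potassium channels and TRP channels, which pass cations in response to stretch, receptor signalling or temperature.

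Levels are FPKM, fragment counts scaled by transcript length and library size. A trend on transcript length remained in these libraries, as described below, so comparisons of level between genes are approximate. Depth in reads is unknown because the table holds no counts. Differences were tested with limma on log2(FPKM + 1), a scale that understates the change of low genes, with p-values adjusted over all tested genes by the Benjamini-Hochberg method and a threshold of 0.05. A gene was tested when at least 2 libraries of the fit reached 1 FPKM. Of the 160 genes, 41 were tested between cardiomyocytes and fibroblasts and 19 between fibroblast groups, while 119 reached 1 FPKM in 1 library or none. Kcnk16 and Kcnmb3 were listed at 0 in every library. Summed over the 160 genes, the level was 43.0 ± 4.84 FPKM (SD, n = 3) in sedentary fibroblasts, 128.3 ± 20.8 (SD, n = 3) in cardiomyocytes, and between 36.4 and 56.9 in all single fibroblast libraries. In sedentary fibroblasts 11 of the genes had a mean of at least 1 FPKM, against 25 in cardiomyocytes.

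Several properties of the libraries bear on these genes. The 12 cardiomyocyte markers listed for the study summed to between 57.1 and 381.6 FPKM in sedentary fibroblasts and to at least 16660 in every cardiomyocyte library, and the 10 fibroblast markers summed to between 2156 and 2803 in the former and between 130.2 and 313.6 in the latter; no marker of either list was at 0 in all libraries of a group. The slope of log2 level on transcript length, per doubling of length, lay between -0.280 and -0.149 in the sedentary, sham and MI libraries, between -0.984 and -0.544 in the TAC and swim libraries, and between -0.831 and -0.717 in cardiomyocytes. The channel genes have long transcripts, with a median of 4016.5 bases against 2598 for all genes. Each call below was therefore also read after a smooth trend on transcript length and GC content had been removed from every library, a correction that also moves genes lying near 0 FPKM.

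The comparison of cardiomyocytes with sedentary fibroblasts asks which channel genes mark each cell type. The cardiomyocyte libraries were higher for the pore and accessory genes of the cardiac sodium, calcium and repolarising potassium currents, and the fibroblast libraries were higher for a smaller set led by Scn7a and Kcnk13. Of 41 tested genes, 24 were higher and 12 lower in cardiomyocytes, or 58.5% and 29.3%, where 38.7% and 38.6% of all 10371 tested genes were called in these directions. The median difference was 0.99 on the log2 scale over the 41 genes and -0.05 over all tested genes. The 24 cannot be read as an enrichment, because 22 genes were tested only through their cardiomyocyte libraries and all 22 were higher there. Among the 19 genes that were also tested within fibroblasts, 2 (Kcna5 and Kcnk3) were higher and 12 lower in cardiomyocytes. These 12 had cardiomyocyte means of at most 0.594 FPKM, so they were tested only through fibroblast libraries. Nothing is read from their shared direction either. In every one of the 36 called genes the 3 cardiomyocyte values lay wholly above or below the 3 fibroblast values. How often this held over all called genes is not given, here or below. Such counts only describe the values. In bulk samples such as these, fewer cells of a type and less RNA per cell cannot be told apart.

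**Figure D1:**
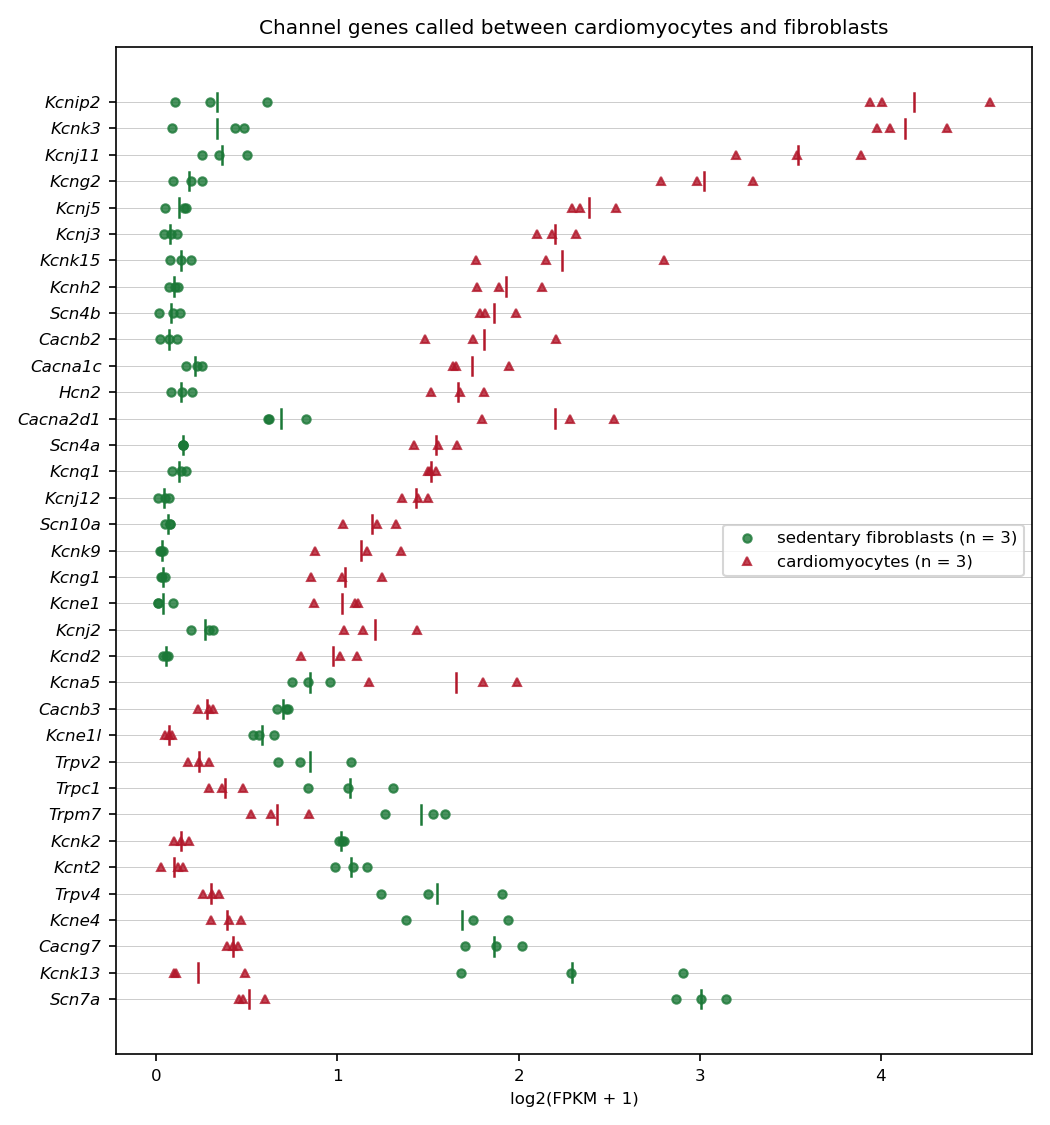
Level of channel genes called between the cell types, as log2(FPKM + 1), in each sedentary fibroblast library (circles) and cardiomyocyte library (triangles), with a bar at each group mean. The genes at the top were higher in cardiomyocytes, from Kcnip2 (a difference of 3.85) to Kcna5 (0.81), and the 12 at the bottom were lower, down to Scn7a (-2.49).

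Scn10a, a sodium channel pore gene best known from sensory neurons, lies at chr9:119608456-119719032 (mm10, starts counted from 1). It was at 1.29 ± 0.234 FPKM (SD, n = 3) in cardiomyocytes and 0.0470 ± 0.0131 in fibroblasts, a log2 difference of 1.12. Scn4a, the skeletal muscle sodium channel pore, was also higher in cardiomyocytes (1.93 ± 0.242 against 0.108 ± 0.00142 FPKM). The beta subunit gene Scn4b was higher there too, by 1.78 on the log2 scale.

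Scn7a ran the other way. It encodes a sodium channel relative that responds to extracellular sodium rather than to voltage, and it had the highest level of all 160 genes in sedentary fibroblasts, at 7.84, 6.29 and 7.05 FPKM, which is 16.4% of their summed level. Cardiomyocytes held 0.372, 0.516 and 0.394 FPKM, so the libraries were far apart, and the log2 difference was -2.49 ± 0.24 (limma adjusted p = 1.5e-08). It lies at chr2:66673426-66784910. The difference remained after the length and GC trend was removed (-1.83, limma adjusted p = 1.21e-07). With that trend removed, 26 of the 41 genes were higher and 12 lower in cardiomyocytes, beside 40.3% and 34.9% of all tested genes.

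Of the calcium channel genes, the L-type pore Cacna1c (2.37 ± 0.419 against 0.160 ± 0.0369 FPKM), the beta subunit Cacnb2 (2.59 ± 0.929 against 0.0491 ± 0.0349) and the alpha2delta subunit Cacna2d1 (3.70 ± 1.15 against 0.616 ± 0.137) were higher in cardiomyocytes. These are the partners of the ventricular L-type channel, and their log2 differences were 1.53, 1.74 and 1.51. In the authors' deposited table Cacna1c and Cacna2d1 were called but Cacnb2 was not (q = 0.264). Fibroblasts were higher for Cacng7, a gamma subunit gene known from AMPA receptor trafficking in brain, with 2.67, 2.26 and 3.04 FPKM against 0.310, 0.368 and 0.341 (-1.44 ± 0.14, limma adjusted p = 7.29e-09), and for the beta subunit Cacnb3 (0.627 ± 0.0358 against 0.213 ± 0.0346 FPKM). Cacnb2 was tested only through cardiomyocyte libraries and Cacnb3 only through fibroblast libraries, so nothing is read from their opposite directions. Cacna1d, Cacna1g and Cacna1h, other pore genes of the heart, stayed under the level for testing, with means of at most 0.215 FPKM in both cell types.

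Kcnip2 and Kcnk3 gave the largest differences among the tested channel genes, Kcnip2 ahead as deposited and Kcnk3 (4.07 against 3.75 on the log2 scale) with the length and GC trend removed. Kcnip2 encodes an accessory protein of the pores that carry the transient outward potassium current, and was at 14.3, 15.1 and 23.3 FPKM in cardiomyocytes. Sedentary fibroblasts held 0.228, 0.0741 and 0.526, and the log2 difference was 3.85 ± 0.16 (limma adjusted p = 2.97e-14). Those 3 fibroblast values follow the order of the libraries' summed cardiomyocyte markers, which were 197.6, 57.1 and 381.6 FPKM. The pore genes Kcnd2 (0.974 ± 0.211 FPKM) and Kcnd3 (0.438 ± 0.123), which carry that current, were far below Kcnip2 in cardiomyocytes, and Kcnd3 was not tested.

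The genes of the delayed rectifiers were higher in cardiomyocytes as well: Kcnh2, the rapid component, by 1.83, Kcnq1, the pore of the slow component, by 1.39, and Kcne1, its accessory subunit, by 0.99 on the log2 scale. They were tested only through their cardiomyocyte libraries, so nothing is read from their shared direction. Kcng2, a silent subunit that modifies other potassium pores, reached 7.21 ± 1.48 FPKM against 0.133 ± 0.0631, a difference of 2.84. Kcna5, an ultrarapid potassium pore, differed least among the 24, with 1.26, 2.49 and 2.98 FPKM in cardiomyocytes and 0.678, 0.947 and 0.788 in fibroblasts (0.81 ± 0.20, limma adjusted p = 0.000979). The accessory genes Kcne4 (2.27 ± 0.624 against 0.311 ± 0.0735 FPKM) and Kcne1l (0.497 ± 0.0624 against 0.0488 ± 0.0124), by contrast, were higher in fibroblasts, with log2 differences of -1.30 and -0.51. Kcnq1 overlaps Kcnq1ot1 on the genome, and whether the authors' quantification used strand is not stated, so the 2 are uncertain.

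Of the 6 tested inward rectifier genes, 5 were higher in cardiomyocytes. Those 5 were tested only through their cardiomyocyte libraries, so nothing is read from their shared direction. Kcnj11, the pore of the ATP-sensitive channel, was at 10.6, 8.18 and 13.8 FPKM in cardiomyocytes against 0.272, 0.189 and 0.413 in fibroblasts (3.18 ± 0.13, limma adjusted p = 2.95e-14). Kcnj3 and Kcnj5, which together form the channel opened by acetylcholine, were at 3.60 ± 0.352 and 4.26 ± 0.486 FPKM in cardiomyocytes and at 0.0554 ± 0.0268 and 0.0895 ± 0.0472 in fibroblasts. Kcnj2 and Kcnj12, the pores of the classical inward rectifier current, were higher by 0.94 and 1.39 on the log2 scale. Summed over the 14 inward rectifiers, the level was 22.9 ± 4.07 FPKM in cardiomyocytes and 0.901 ± 0.165 in sedentary fibroblasts. Kcnj15, the only tested inward rectifier not called, was at 0.0399 ± 0.0127 FPKM in fibroblasts and 0.0637 ± 0.0222 in cardiomyocytes.

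The two-pore-domain genes, whose channels leak potassium at rest, differed in both directions. Kcnk15 and Kcnk9 were tested only through cardiomyocyte libraries, and Kcnk13 and Kcnk2 only through fibroblast libraries. Nothing is therefore read from how these genes divided. Kcnk3 was at 15.6, 14.8 and 19.6 FPKM in cardiomyocytes and 0.351, 0.0617 and 0.398 in fibroblasts (3.80 ± 0.17, limma adjusted p = 7.06e-14), and Kcnk15 and Kcnk9 were higher there by 2.10 and 1.10. Kcnk13 was at 3.89, 2.21 and 6.51 FPKM in fibroblasts and 0.402, 0.0801 and 0.0706 in cardiomyocytes (-2.06 ± 0.29, limma adjusted p = 2.16e-06). Its fibroblast libraries varied almost as much as 3 to 1, yet none came near the cardiomyocytes. Kcnk2, a stretch-sensitive leak channel, was likewise higher in fibroblasts, at 1.03 ± 0.0203 against 0.101 ± 0.0305 FPKM.

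Hcn2 was at 2.18 ± 0.320 FPKM in cardiomyocytes and 0.102 ± 0.0434 in fibroblasts, a log2 difference of 1.53. Its listed locus spans 46 other genes of the table and the authors' deposited table does not call it (q = 0.877), so its value is uncertain. Hcn4, the main pacemaker gene, was under the level for testing at 0.950 ± 0.175 FPKM in cardiomyocytes; without the filter it was called, by 0.87. The 4 tested TRP genes reached the level for testing only within the fibroblast libraries. None was called higher in cardiomyocytes, and nothing is read from that shared direction. Trpv4, a cation channel opened by warmth and swelling, was at 1.83, 1.36 and 2.75 FPKM in fibroblasts and 0.270, 0.237 and 0.197 in cardiomyocytes (-1.25 ± 0.18, limma adjusted p = 4.05e-06). Trpv2, also a cation channel, was lower in cardiomyocytes by 0.61 on the log2 scale. For Trpm7, a channel fused to a kinase (1.77 ± 0.322 against 0.594 ± 0.181 FPKM), and Trpc1 (1.12 ± 0.343 against 0.302 ± 0.0855), a cation channel linked to receptor signalling, the calls were lost once the length and GC trend was removed, at -0.13 (limma adjusted p = 0.150) and -0.16 (limma adjusted p = 0.319). Kcnt2, a sodium-activated potassium pore, kept its call there at a smaller size, -0.45 in place of -0.98.

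Levels in the lower cell type were read beside the summed markers of the higher one. Summed cardiomyocyte markers in sedentary fibroblasts came to 1.08% of their cardiomyocyte level, and to between 0.29% and 1.94% in single libraries. Fibroblast levels of 7 of the 24 cardiomyocyte genes, among them Kcnj3 (1.54% of the cardiomyocyte level), Kcnip2 (1.57%) and Kcnk3 (1.62%), lay at or below the highest of these percentages. The other 17 lay above it, with Kcna5 at 35.9%, Cacna2d1 at 16.6% and Kcnj2 at 15.4%. In the opposite direction the fibroblast markers in cardiomyocytes came to 8.97% (5.16% to 12.4% by library), and 6 of the 12 fibroblast genes, Kcnk13 (4.38%), Scn7a (6.06%) and Kcnt2 (6.41%) the lowest, were at or below that range's top. The part of these markers in the results was not tested.

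**Figure D2:**
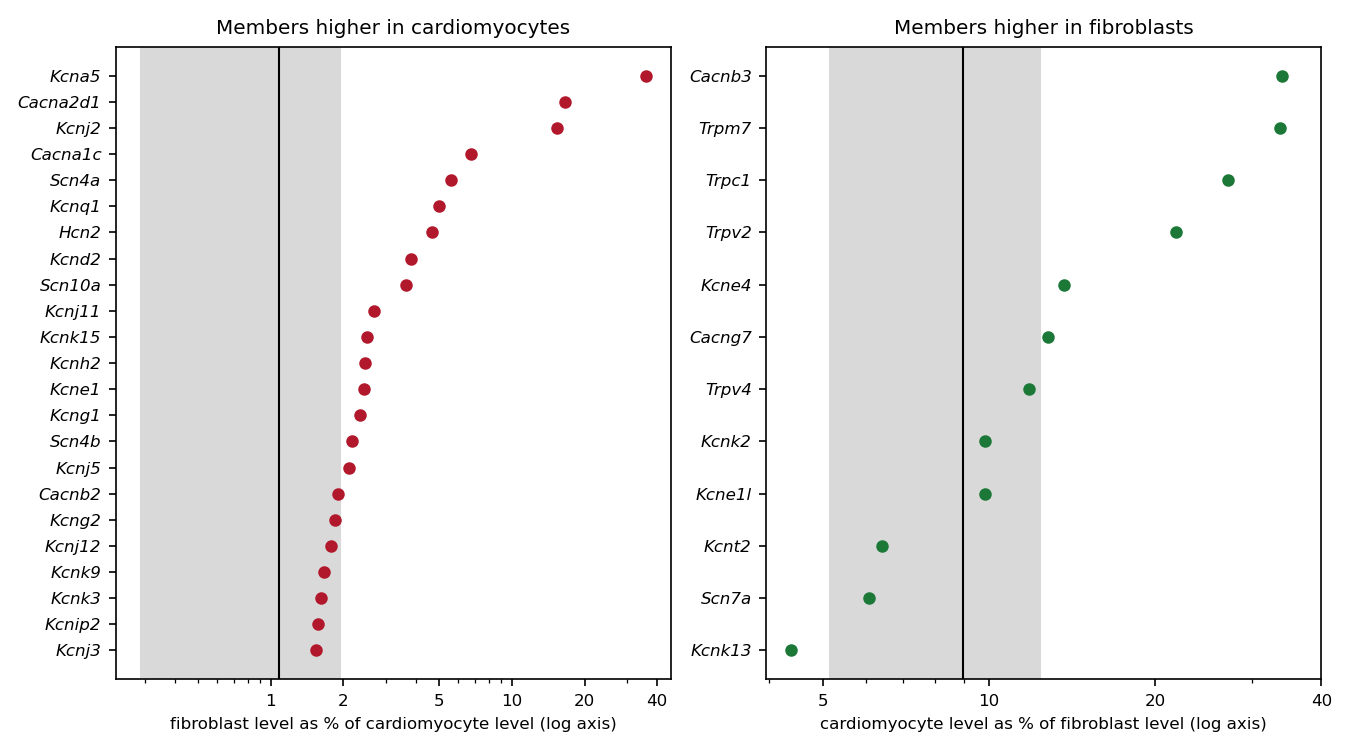
Level in the lower cell type as a percentage of the higher one (log axis), for channel genes higher in cardiomyocytes (left) and the 12 higher in fibroblasts (right). The line and grey band give the same percentage for the summed markers of the higher cell type and its range over libraries; 7 genes on the left and 6 on the right lie at or below the band's top.

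A list of 60 genes of excitation and calcium handling outside the channel families was read beside them. Of its 45 tested genes, 26 were higher and 12 lower in cardiomyocytes, beside 38.7% and 38.6% of all tested genes. Ryr2, Slc8a1, Trdn, Fgf13, Jph1, Sln and Clcn3 passed the filter only when cardiomyocyte libraries were included, and all were higher there. The 26 therefore cannot be read as an enrichment. The higher ones were led by genes of the sarcoplasmic reticulum, the calcium store of muscle: Pln (6.13 on the log2 scale), which restrains the calcium pump, Casq2 (5.57), which buffers stored calcium, Tmem38a (5.43), a counter-ion channel, and Atp2a2 (4.34), the pump itself. The release channel Ryr2 was higher by 2.60. Abcc9, the regulatory partner of Kcnj11, was higher by 1.39. Among the lower genes were Piezo1 (-2.15), a stretch-activated cation channel, Pkd2 (-1.95), a TRP-related channel, and Stim1 (-1.10), which senses store calcium. Pln and Ryr2 are also on the cardiomyocyte marker list.

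The regions upstream of 3 genes that set the cell types apart are shown as background for their contrasting levels: Kcnip2, with the largest difference towards cardiomyocytes as deposited, and Scn7a and Kcnk13, with the largest towards fibroblasts. Each is the 120 bases before the RefSeq transcription start (GRCm38.p6, the assembly called mm10), on the gene's strand. The starts match the 5′ ends of the loci in the table. Capitals mark matches, on either strand, to letters bound by 3 families of cardiac transcription factors. GATA factors were searched as AGATAA. For TEAD factors the letters were CATTCC. An E-box was read as CAGCTG.
Kcnip2, chr19:45816064-45816183, minus strand: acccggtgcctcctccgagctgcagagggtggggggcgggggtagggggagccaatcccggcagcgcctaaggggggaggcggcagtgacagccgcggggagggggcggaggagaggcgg
Scn7a, chr2:66784911-66785030, minus strand: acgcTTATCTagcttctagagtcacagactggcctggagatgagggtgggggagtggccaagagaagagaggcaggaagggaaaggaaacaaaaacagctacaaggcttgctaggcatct
Kcnk13, chr12:99964379-99964498, plus strand: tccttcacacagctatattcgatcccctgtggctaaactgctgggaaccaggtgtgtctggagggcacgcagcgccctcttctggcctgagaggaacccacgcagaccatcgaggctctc
The Kcnip2 stretch is rich in G runs, and only the Scn7a stretch holds a match, to the GATA letters on the opposite strand. In the wider window of 250 bases, 0 of 19 promoters of 16 cardiomyocyte genes and 1 of 17 promoters of 11 fibroblast genes held the GATA letters, against 9.99% of all 32851 promoters. For the TEAD letters these were 2 of 19 and 5 of 17, against 12.6%, and for the E-box 4 of 19 and 4 of 17, against 13.0%. A match is a run of letters, not a binding site.

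The channel genes with high levels over the fibroblast libraries included Kcnk13, Scn7a, Kcne4 and Cacng7. Kcnk13 ran from 2.21 to 10.5 FPKM over the 19 libraries (median 5.35), Scn7a from 0.972 to 10.7 (median 4.43), Kcne4 from 1.60 to 8.74 (median 4.35) and Cacng7 from 2.26 to 4.80 (median 3.12). Scn7a had the highest mean of the 160 genes in sedentary and sham fibroblasts. After 3 days of TAC the highest mean was that of Kcne4, at 7.89 ± 0.955 FPKM. The median log2 difference of the 19 tested genes was 0.15 after 3 days of TAC, 0.37 after 10 days of TAC, 0.11 after MI, 0.04 and 0.05 after 4 and 10 days of swimming and -0.12 for swimming against TAC. Over all tested genes it was 0.05, 0.12, 0.11, 0.13, 0.14 and 0.02. Comparisons below that use the sedentary libraries share those 3 controls. The only sham libraries are those at 3 days. For 10 days of TAC and for MI, surgery therefore cannot be told apart from the condition itself.

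**Figure D3:**
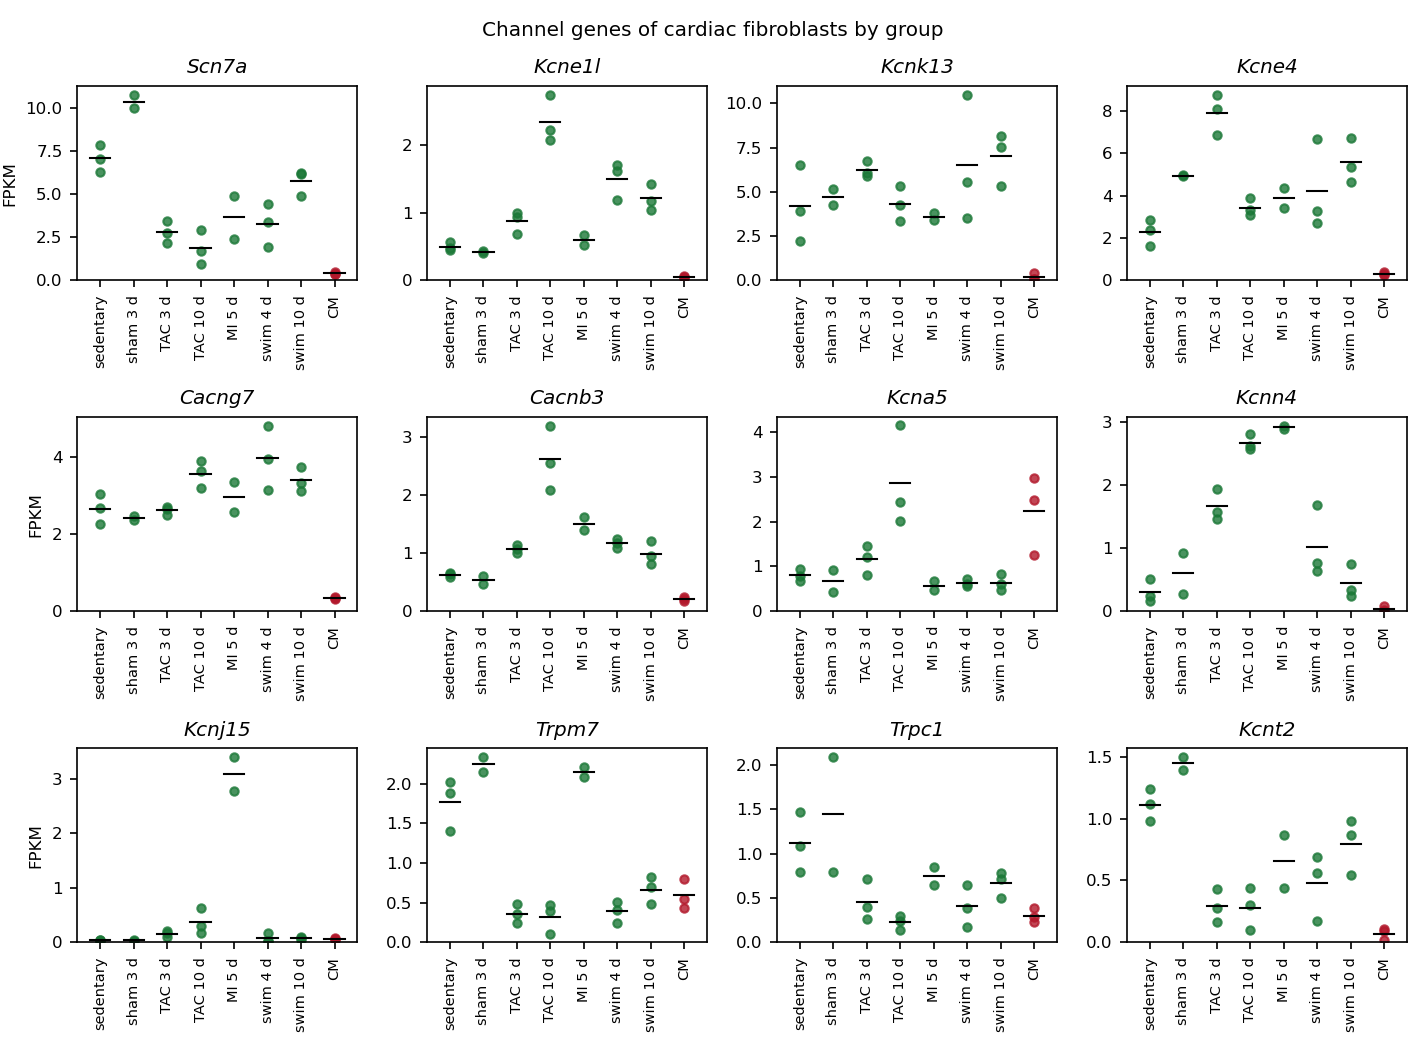
FPKM of 12 channel genes in every library by group, with a bar at each group mean; green points are fibroblasts and red points cardiomyocytes, and each panel has its own axis from 0. Kcnj15 stands at 3.40 and 2.78 FPKM in the 2 MI libraries and at no more than 0.630 elsewhere, while Trpm7 separates the sedentary, sham and MI libraries from all TAC and swim libraries.

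After 3 days of TAC, fibroblasts differed from sham in 9 of 19 tested channel genes: 5 rose and 4 fell (26.3% and 21.1%), where 31.3% and 25.8% of all 9425 tested genes did so. The shares are near that background. Kcnn4, the intermediate-conductance calcium-activated potassium channel found in proliferating and immune cells, rose by 0.76, and Trpv2, Cacnb3 and Kcne1l rose by 0.40 to 0.48, of which Kcne1l turned to -0.34 (limma adjusted p = 0.0868) once the length and GC trend was removed. Scn7a fell from 10.7 and 9.97 FPKM to 2.75, 3.45 and 2.18 (-1.59 ± 0.29, limma adjusted p = 0.000223), and Trpm7 from 2.34 and 2.15 to 0.353, 0.481 and 0.245 (-1.26 ± 0.14, limma adjusted p = 3.99e-06). Kcnt2 and Trpc1 also fell, by 0.92 and 0.71 on the log2 scale. The groups did not overlap in any of the 9, a count given without its share over all called genes.

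These calls depended on the processing and on 1 sham library. With the length and GC trend removed, 3 genes were higher and 1 lower, beside 27.7% and 17.2% of all tested genes. The 3 were Kcnj15 (0.84), Kcne4 (0.65) and Trpv2 (0.44). Kcnj15 was near 0 FPKM in both groups, at 0.158 ± 0.0619 after TAC and 0.0386 ± 0.0157 in sham, and was not called as deposited (0.16). Trpm7 remained lower at -0.24 (limma adjusted p = 0.0318), and Scn7a was at -0.57 (limma adjusted p = 0.0588). Kcnn4 (0.20) and Cacnb3 (0.15) were not called there. Without sham replicate 1, 1 gene was called higher, while Scn7a, Trpm7 and Kcnt2 were the 3 called lower. The 10 fibroblast markers summed to between 1266 and 2226 FPKM after 3 days of TAC and between 2655 and 3120 in sham, with 3 of them called higher and 2 lower after TAC. Schwann and neuronal markers summed to between 58.3 and 80.7 against 35.8 and 52.8; of these 9 genes 3 were tested, 1 higher and 1 lower, and 2 were at 0 in all libraries of each group. Macrophage and monocyte markers summed to between 202.4 and 341.4 against 454.1 and 1033, with 3 of 8 called lower, and endothelial markers to between 151.4 and 202.0 against 78.3 and 140.7, with 2 of 8 called lower. Their part in the 9 differences was not tested.

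After 10 days of TAC, 9 of the 19 genes rose against sedentary fibroblasts and 4 fell (47.4% and 21.1%), beside 38.8% and 27.0% of all tested genes. Kcnn4 stood at 2.56, 2.81 and 2.61 FPKM against 0.172, 0.513 and 0.247, every TAC library above every sedentary one (1.49 ± 0.18, limma adjusted p = 4.96e-06). Cacnb3, which brings calcium channel pores to the membrane, went from 0.586, 0.640 and 0.654 FPKM to 2.10, 3.19 and 2.56 (1.14 ± 0.11, limma adjusted p = 1.25e-06). Kcna5 stood at 2.02, 4.14 and 2.44 FPKM, within reach of its cardiomyocyte level and clear of the sedentary fibroblasts (1.06 ± 0.17, limma adjusted p = 5.09e-05). Among fibroblasts Kcna5 reached 1 FPKM only in TAC libraries, so its call is not read against the background share. Kcne1l rose by 1.15. Kcnab2, a potassium channel beta subunit, rose by 0.48, Kcnj15 by 0.38 and Trpv2 by 0.37; among these 7 the groups overlapped only in Trpv2. All but Kcnab2 of these 7 were called higher after the length and GC trend was removed too, Kcnn4 at 0.87, Kcna5 at 0.99 and Cacnb3 at 0.78. That setting called 9 of the 19 higher and 2 lower, beside 37.8% and 17.9% of all tested genes. The call for Trpv2 was lost without TAC replicate 1 (0.29), sedentary replicate 1 (0.34) or sedentary replicate 2 (0.28).

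Kcnk3 was also among the 9, and its TAC libraries disagreed, with 1.13, 0.296 and 1.46 FPKM beside 0.351, 0.0617 and 0.398 in sedentary fibroblasts. The groups overlapped, though the gene was called (0.59 ± 0.17, limma adjusted p = 0.00586). Kcnk3 entered the fibroblast tests only through the TAC libraries at 1.13 and 1.46 FPKM. Its call is therefore not read against the background share. The summed cardiomyocyte markers of those TAC libraries were 687.8, 196.8 and 861.8 FPKM, in the same order. They lay between 57.1 and 381.6 in sedentary fibroblasts, and of 10 tested cardiomyocyte markers 7 were called higher after TAC and 0 lower. Endothelial markers (8 genes, none at 0 in all libraries) summed to between 335.0 and 840.1 FPKM after 10 days of TAC and between 105.6 and 199.8 in sedentary fibroblasts, and the library with the most Kcna5 had the most of them and the fewest cardiomyocyte markers. Fibroblast markers summed to between 1145 and 1900 FPKM against 2156 and 2803, with 3 of 10 called higher and 4 lower. Their part in these results was not tested.

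The 4 genes that fell after 10 days of TAC were the ones that fell at 3 days. Scn7a stood at 2.94, 1.73 and 0.972 FPKM against 7.84, 6.29 and 7.05 (-1.54 ± 0.26, limma adjusted p = 8.3e-05), and with the trend removed it was still called at -0.58 (limma adjusted p = 0.0282). Trpm7 (-1.07), Trpc1 (-0.77) and Kcnt2 (-0.73) were not called after that correction, at -0.11, -0.15 and 0.22. These 4 genes have transcripts of 7338 (Scn7a), 7107 (Trpm7), 5790 (Kcnt2) and 4559 (Trpc1) bases, while the transcripts of Kcne1l and Kcnn4, which rose, have 1543 and 1990. Among the comparisons made here, the authors' deposited table gives Trpm7 a test only for swimming against TAC at 10 days (q = 0.0446).

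**Figure D4:**
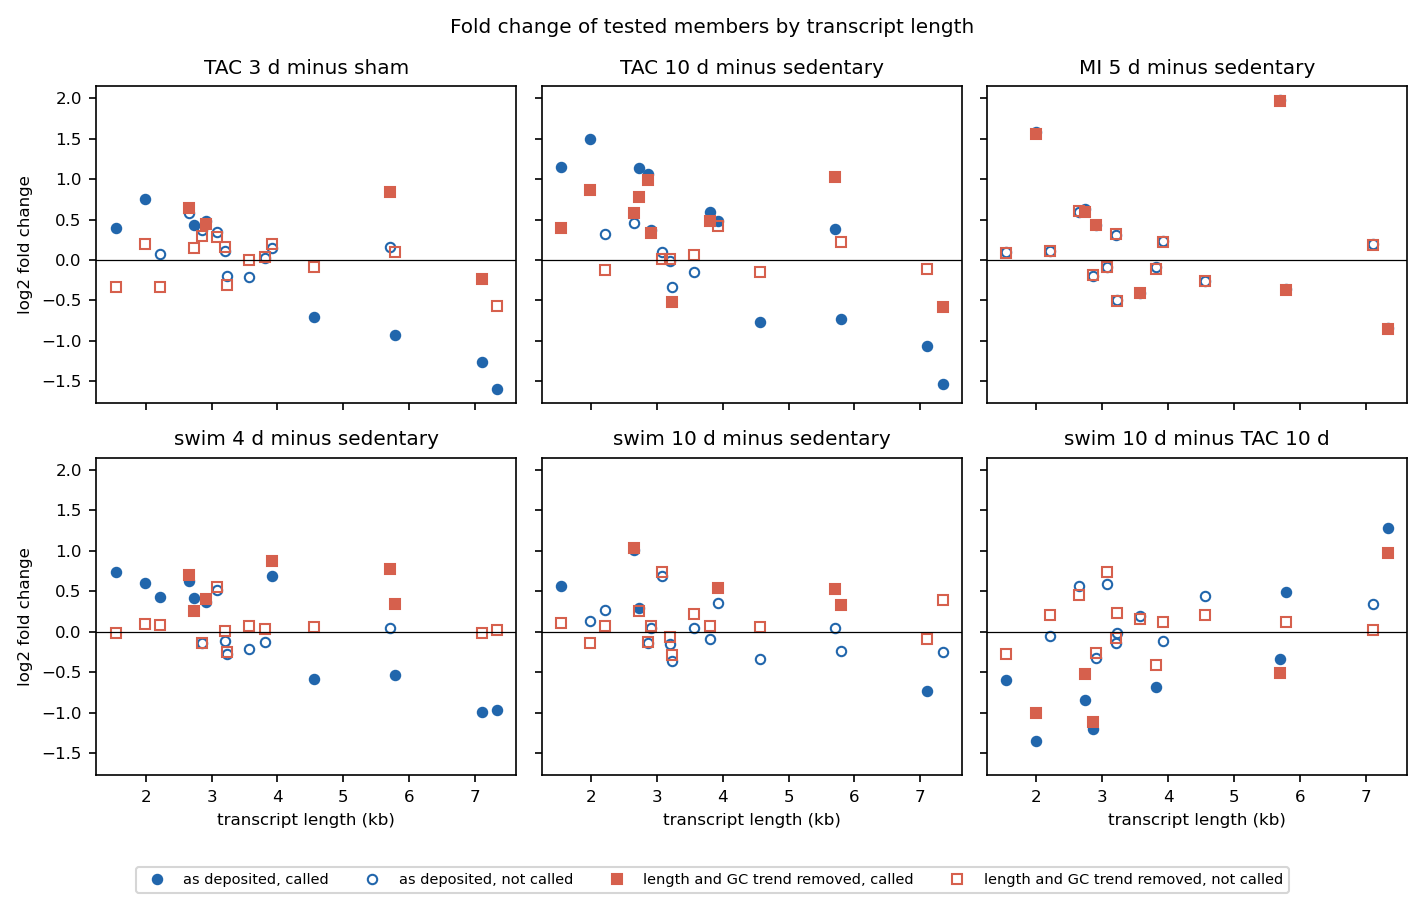
Log2 fold change of tested channel genes in fibroblasts against transcript length (kb), for 6 comparisons, as deposited (circles) and with the length and GC trend removed (squares); filled symbols were called. In both TAC panels and the 4-day swim panel the longest transcripts, Scn7a and Trpm7, lie lowest as deposited and move towards 0 when the trend is removed, whereas in the 10-day swim panel Scn7a goes from -0.26 to 0.39 and in the MI panel the symbols nearly coincide.

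After MI, 3 of the 19 channel genes rose and 0 fell (15.8% and 0.0%), beside 8.93% and 2.34% of all tested genes. With libraries scaled to the same median, 3 rose and 4 fell (Scn7a, Trpv4, Kcnk2 and Kcnt2). The share over all tested genes is not given for that scaling, so these counts are not read as a result about channel genes. Kcnj15, an inward rectifier best known from kidney and other epithelia, was at 3.40 and 2.78 FPKM after MI and at 0.0265, 0.0413 and 0.0518 in sedentary fibroblasts. The log2 difference was 1.97 ± 0.12 (limma adjusted p = 5.98e-09). Outside the MI group its highest fibroblast library was at 0.630 FPKM, and in cardiomyocytes it reached at most 0.0883. Kcnj15 was therefore tested only through the MI libraries, and its call is not read against the background share. Kcnn4 was at 2.89 and 2.93 FPKM (1.58 ± 0.21, limma adjusted p = 4.51e-05), near its level after 10 days of TAC. Cacnb3 was at 1.63 and 1.40 FPKM, a rise of 0.62 ± 0.13 (limma adjusted p = 0.00303). The 3 differences were 1.96, 1.56 and 0.60 with the length and GC trend removed, and in the authors' deposited table all 3 were called higher.

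Scn7a was at 4.91 and 2.40 FPKM after MI, below every sedentary library, but was not called (-0.84, limma adjusted p = 0.0733). With the trend removed it was called lower, at -0.85 (limma adjusted p = 0.0209), together with Kcnk2 (-0.41) and Kcnt2 (-0.37); that setting called 4 of the 19 higher and 3 lower, beside 12.3% and 3.24% of all tested genes. Trpm7, at 2.22 and 2.08 FPKM, was not lower after MI. Without the filter on low values, Kcnma1, the pore of the large-conductance calcium-activated potassium channel, stood out at 0.246 and 0.195 FPKM against at most 0.0275 in any other library (0.28 on the log2 scale, limma adjusted p = 6.2e-09). Macrophage and monocyte markers summed to 553.8 and 566.4 FPKM in the MI libraries and between 302.1 and 382.1 in sedentary fibroblasts, and reached 1033 in 1 sham library, where Kcnj15 was at 0.0496 and Kcnn4 at 0.931 FPKM. Pericyte and smooth muscle markers summed to 64.9 and 111.6 after MI and between 31.7 and 47.1 in sedentary libraries, and between 177.5 and 325.1 in cardiomyocytes. None of the 8 markers measured in either list was at 0 in all MI libraries, and their part in these changes was not tested.

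The region upstream of Kcnj15 (chr16:95257558-95300258) is shown because this gene had the largest difference in the 6 fibroblast comparisons tested; it is the 120 bases before the RefSeq start, on the plus strand.
Kcnj15, chr16:95257438-95257557: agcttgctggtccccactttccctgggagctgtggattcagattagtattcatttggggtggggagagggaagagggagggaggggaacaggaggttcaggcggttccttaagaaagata
None of the letters searched above occurs in it, which says only that these runs are not in this window.

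After 4 days of swimming, 8 of the 19 genes rose against sedentary fibroblasts and 4 fell (42.1% and 21.1%), beside 38.2% and 26.3% of all tested genes. Kcne1l went from 0.497 ± 0.0624 to 1.50 ± 0.273 FPKM (SD, n = 3 in each group), a log2 difference of 0.73 that was -0.01 with the length and GC trend removed. Kcnab2 rose by 0.69, Kcne4 by 0.62, Kcnn4 by 0.60, Cacng7 by 0.43, Cacnb3 by 0.41 and Trpv2 by 0.37. The genes that fell were again Trpm7 (-0.99), Scn7a (-0.96), Trpc1 (-0.59) and Kcnt2 (-0.53). With the length and GC trend removed, 7 genes were higher and 0 lower, beside 37.7% and 15.3% of all tested genes, Scn7a was at 0.02, and Kcnt2 was called higher, at 0.35 (limma adjusted p = 0.00488). The calls of Kcnn4 (0.09) and Cacng7 (0.08) were lost there, while Kcnab2, Kcne4, Cacnb3 and Trpv2 kept theirs. Kcnj15 was called higher only there, at 0.78, from levels near 0 FPKM (0.0735 against 0.0399). The groups overlapped in Kcne4 and in no other of the 12. The rises of Kcne4 and Cacng7 were not called without swim replicate 3 (0.30 and 0.31) or sedentary replicate 2 (0.47 and 0.35), that of Kcnn4 was not called without swim replicate 3 (0.38), and that of Trpv2 was not called without swim replicate 1 (0.30), sedentary replicate 1 (0.34) or sedentary replicate 2 (0.28). Without swim replicate 3, as without sedentary replicate 2, 5 genes were called higher. Pericyte and smooth muscle markers summed to between 11.3 and 21.4 FPKM after 4 days of swimming and between 31.7 and 47.1 in sedentary fibroblasts, with 4 of 8 called lower. Fibroblast markers summed to between 2802 and 3989 against 2156 and 2803, 4 of 10 called higher and 1 lower, and of the 8 endothelial markers 6 were called lower and 1 higher, though their sums overlapped. No gene of these 3 lists was at 0 in all libraries of a group, and their part in the changes was not tested.

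After 10 days of swimming fewer channel genes were called: 4 rose and 1 fell (21.1% and 5.26%), beside 30.0% and 13.6% of all tested genes. With libraries scaled to the same median 3 rose and 4 fell (Trpm7, Trpv4, Trpc1 and Kcnt2). The share over all tested genes is not given for that scaling, so these counts are not read as a result about channel genes. Kcne4, which inhibits several potassium pores, was at 5.36, 4.66 and 6.70 FPKM against 2.36, 1.60 and 2.84 in sedentary fibroblasts (1.01 ± 0.23, limma adjusted p = 0.00191), and at 1.03 with the trend removed. Kcne1l and Cacnb3 rose by 0.56 and 0.29, and neither was called with the trend removed, at 0.11 (limma adjusted p = 0.573) and 0.26 (limma adjusted p = 0.0590). Kcnt2, not called as deposited (-0.24), was called higher there, at 0.33 (limma adjusted p = 0.0112). So was Kcnj15, at 0.52, from levels near 0 FPKM (0.0758 against 0.0399). Trpm7 fell from 2.02, 1.88 and 1.40 FPKM to 0.819, 0.482 and 0.692 (-0.73 ± 0.13, limma adjusted p = 0.000277), a call lost at -0.09 with the trend removed, when 5 genes were higher and 0 lower, beside 27.9% and 5.39% of all tested genes. Kcnk13 was at 7.01 ± 1.46 FPKM against 4.21 ± 2.17, overlapping values that were not called. Fibroblast markers summed to between 3372 and 3853 FPKM and pericyte and smooth muscle markers to between 18.8 and 23.6, both clear of the sedentary libraries, with 1 of 10 called higher and 2 of 8 lower, and 4 of 8 endothelial markers were called lower; their part was not tested.

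Swimming and TAC at 10 days were also compared with each other. There is no sham group at 10 days, so surgery, TAC and swimming cannot be told apart in this comparison. Swim libraries were higher than TAC libraries for 2 of the 19 genes and lower for 6 (10.5% and 31.6%), beside 10.9% and 13.2% of all tested genes. Kcnn4 was at 0.249, 0.745 and 0.333 FPKM after swimming and 2.56, 2.81 and 2.61 after TAC (-1.36 ± 0.18, limma adjusted p = 8.78e-05). Kcna5 was at 0.606, 0.843 and 0.473 against 2.02, 4.14 and 2.44 (-1.21 ± 0.17, limma adjusted p = 0.000134), and Cacnb3 at 0.959, 1.21 and 0.824 against 2.10, 3.19 and 2.56 (-0.85 ± 0.11, limma adjusted p = 6.88e-05). Kcnk3 (-0.68), Kcne1l (-0.60) and Kcnj15 (-0.34) were lower too. Kcnk3 was tested in fibroblasts only through libraries of the 10-day TAC group, so nothing is read from its direction. Among fibroblasts Kcna5 reached 1 FPKM only in TAC libraries, so its direction is not read either. The 6 lower calls are therefore not read against the background share. Scn7a was higher after swimming, at 6.21, 4.89 and 6.16 FPKM against 2.94, 1.73 and 0.972 (1.28 ± 0.26, limma adjusted p = 0.00248), as was Kcnt2 (0.49).

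In none of these 8 genes did the swim and TAC libraries overlap, a count given without its share over all called genes. With the length and GC trend removed, Kcnn4 (-1.01), Kcna5 (-1.12), Cacnb3 (-0.52), Kcnj15 (-0.51) and Scn7a (0.97) kept their calls, while Kcnk3 (-0.41), Kcne1l (-0.28) and Kcnt2 (0.11) did not; the background was then 10.2% higher and 11.8% lower. Without TAC replicate 3, or without swim replicate 1 or 3, 1 gene was called higher in place of 2. For Kcnn4 and Cacnb3 the 10-day TAC and 10-day swim levels thus differed beyond the spread of the libraries under both treatments of the data. Kcna5 kept its call too, but nothing is read from its direction, for the reason given above. Markers moved with this comparison: after swimming against after TAC, fibroblast markers summed to between 3372 and 3853 against 1145 and 1900 FPKM (7 of 10 called higher, 3 lower), endothelial markers to between 143.0 and 274.7 against 335.0 and 840.1 (5 of 8 lower), and pericyte and smooth muscle markers to between 18.8 and 23.6 against 48.2 and 53.7 (4 of 8 lower). Cardiomyocyte markers summed to between 109.6 and 314.9 FPKM after swimming and between 196.8 and 861.8 after TAC, with 0 of 10 tested called higher and 3 lower. No gene of these lists was at 0 in all libraries of a group, and their part in the 8 differences was not tested.

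Without the filter on low values, 158 of the 160 genes could be tested. Between cell types 62 were higher and 24 lower in cardiomyocytes, beside 27.1% and 25.9% of all genes tested that way. Against controls, 6 were higher and 29 lower after 3 days of TAC (background 15.2% and 18.2%), 28 and 22 after 10 days of TAC (21.5% and 18.7%), 8 and 2 after MI (6.75% and 1.46%), 9 and 29 after 4 days of swimming (19.7% and 19.6%) and 5 and 14 after 10 days (13.2% and 10.2%). Swimming against TAC gave 4 higher and 23 lower (4.07% and 7.26%). Most of these genes were near 0 FPKM. The following were picked out after their values were seen. Cacna1g, a T-type calcium channel pore, was at 0.534, 0.603 and 0.393 FPKM after 10 days of TAC against 0.130, 0.128 and 0.133 in sedentary fibroblasts (0.42, limma adjusted p = 1.4e-05), and at 0.0623 ± 0.0262 after 10 days of swimming. Trpm4, a calcium-activated cation channel, was at 0.838, 0.674 and 0.939 FPKM after 3 days of TAC against 0.322 and 0.398 in sham (0.42, limma adjusted p = 0.0017). Kcnip1, an accessory gene of the Kcnip2 family whose locus overlaps Kcnmb1, was at 0.541, 0.639 and 0.602 FPKM after 10 days of swimming against 0.0998, 0.212 and 0.129 (0.48, limma adjusted p = 8.5e-05). All of these levels stayed under 1 FPKM.

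Of the list of excitation and calcium handling genes, 38 were tested in fibroblasts. Relative to controls, 7 rose and 15 fell after 3 days of TAC, 11 and 14 after 10 days of TAC, 1 and 1 after MI, 10 and 15 after 4 days of swimming and 6 and 8 after 10 days. All tested genes gave, in the same order, 31.3% and 25.8%, 38.8% and 27.0%, 8.93% and 2.34%, 38.2% and 26.3%, and 30.0% and 13.6%. After 10 days of TAC the rises included Calm3, a calmodulin gene (1.59 on the log2 scale), and Orai3 and Orai1, pores of store-operated calcium entry (1.36 and 1.34), and the falls included the gap junction gene Gja1 (-1.83), the plasma membrane calcium pump Atp2b1 (-1.42) and Piezo1 (-1.07). After MI the calmodulin-dependent kinase gene Camk2d rose by 0.56 and Fxyd1, a regulator of the sodium pump, fell by 0.85. With the length and GC trend removed, 10 rose and 8 fell after 10 days of TAC, beside 37.8% and 17.9% of all tested genes. After 3 days of TAC 5 rose and 7 fell there, beside 27.7% and 17.2%. The log2 differences of single genes of this list are as deposited. Their values with that trend removed are not given.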

How the data were processed

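Poly-A RNA was made into stranded libraries, per the labels' protocols. The authors deposited FPKM per gene and library, made with Cufflinks 2.0.2 on mm10, per the submitters' processing notes. The name of the aligner is not given in the sources used here, nor is that of the annotation. From the authors' deposited comparison table came q-values and calls, and its fold ratio column was read for sign only. The 44 columns of confidence bounds were not used. The fits used limma 3.58.1, with its trend and robust options, in R 4.3.3 on log2(FPKM + 1), with 22 libraries for cardiomyocytes against fibroblasts and 19 for the fibroblast comparisons. Transcript length and GC content came from the longest GENCODE M21 transcript and were available for all 160 genes; the trend was a spline with 4 degrees of freedom for each. The genes, lists and tests were chosen with earlier results of these data known. Genes were named by a rule: the 12 largest rises and falls between cell types and the 6 largest in each fibroblast comparison, at a mean of at least 1 FPKM in the higher group, genes at 5 FPKM in any group, and a set list of cardiac channel genes; further genes are named where a count is spelled out. Some genes that this rule selects enter the counts but are not reported here by name. RefSeq promoters (GRCm38.p6) were matched by symbol. Alternatives were a pseudocount of 0.1, no filter on low values, scaling to the same median, removal of the length and GC trend, fits on the compared groups alone, leaving out each library, and a replicate block.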

Additional observations from a re-analysis of the deposited data

How the results depend on the processing

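Cardiomyocyte against fibroblast counts of channel genes (24 higher, 12 lower) were 20 to 25 and 12 to 12 when single libraries were left out, and 62 and 24 of 158 without the filter on low values. Without that filter the other comparisons gave 29 lower for 3 days of TAC, 28 higher and 22 lower for 10 days of TAC, 8 and 2 for MI, 29 lower for 4 days and 14 lower for 10 days of swimming, and 4 higher and 23 lower for swimming against TAC. With the length and GC trend removed, 3 days of TAC gave 3 higher and 1 lower, 10 days of TAC 2 lower, MI 3 lower, 4 and 10 days of swimming 0 lower, and swimming against TAC 1 higher. Scaling to the same median gave 4 lower for MI and 4 for 10 days of swimming. A pseudocount of 0.1 gave 4 higher for swimming against TAC. The fit on the compared groups alone gave 3 higher for 4 days of swimming, from 14 tested genes. Shares over all tested genes are not given for these settings or for fits without single libraries. Directions of called genes that turned with the trend removed were Kcne1l at -0.34 (3 days of TAC), Kcnt2 at 0.10 (3 days of TAC), 0.22 (10 days of TAC) and 0.35 (4 days of swimming, limma adjusted p = 0.00488), and, for 4 days of swimming, Kcne1l at -0.012, Scn7a at 0.016 and Trpc1 at 0.057; beyond that correction itself the cause was not tested. Leaving out single libraries gave 1 to 6 higher and 3 to 4 lower for 3 days of TAC, 6 to 9 and 4 to 5 for 10 days of TAC, 2 to 4 and 0 to 1 for MI, 5 to 9 and 4 to 5 for 4 days of swimming, 3 to 4 and 1 to 1 for 10 days of swimming, and 1 to 3 and 4 to 6 for swimming against TAC. The median of all tested genes lay at 0.12, 0.11, 0.13 and 0.14 for 10 days of TAC, MI, 4 and 10 days of swimming. Cardiomyocyte and sedentary fibroblast libraries share labels in their titles, kept here as replicate numbers. Same-numbered deviations correlated at 0.233, 0.314 and 0.065, above the differently numbered ones, which lay between -0.264 and 0.081. Whether the labels pair samples is not stated, and the main fit did not pair them. With the numbers as a replicate block the counts were again 24 and 12. A replicate block gave 4 higher and 0 lower for MI, where same-numbered correlations were -0.168 and -0.357. With no counts, how far depth limits the low genes is unknown.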
